A study of Mus musculus with 4 samples.

Results

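Neutrophils store their microbicidal proteins in granules that are filled in sequence while the cell matures, and 10 of the genes concerned were followed across single cells of mouse ascites. The genes were taken by symbol from the 32285 genes in the count tables. They are Elane, Mpo, Prtn3 and Ctsg (azurophil granule proteins), Ltf, Camp and Ngp (specific granule proteins), Retnlg (a late transcript of this lineage), and S100a8 and S100a9 (the abundant cytosolic pair that forms calprotectin). Neutrophils were the kept cells in which S100a8 plus S100a9 made up 1% of unique molecular identifiers (UMIs) or more, which were 7608 of 132644 cells. There were 242 and 642 neutrophils in siCont replicates 1 and 2, and 3202 and 3522 in siFXR1-LNA replicates 1 and 2.

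The cells were ascites cells of female FVB mice, an immunocompetent strain, collected 6 weeks after injection of tumor cells into the peritoneal cavity. The tumor cells (Br-Luc) were an ovarian cancer line lacking p53 and brca1 and carrying myc and myristoylated Akt, and every mouse of either group received them. By the study's methods, the siCont group was given an LNA-modified control siRNA and the siFXR1-LNA group an LNA-modified siRNA against Fxr1. Both were carried in jetPEI nanoparticles and given by the intraperitoneal route, and ascites of several mice were pooled. Each group had 2 libraries of 3′ single-cell RNA-seq, and red cells were lysed before capture. By the study's methods, its authors dropped one siFXR1-LNA sample for its low read and cell numbers, without naming it. Both siFXR1-LNA libraries are used here, of which replicate 2 has fewer UMIs and barcodes, and the counts of called genes without each library are given under the alternatives. Nothing in the labels shows that the 2 libraries of a group came from separate pools of mice, so the p-values below measure the spread between libraries, which may be technical.

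The targeted gene went against the labels in the cells summed here. The study reports lower Fxr1 in epithelial cells of its siFXR1-LNA group, which were not summed apart here. It also reports lower FXR1 protein in mouse ovarian cancer lines given the siRNA. As CPM (UMIs of the gene scaled to the UMI total of the cells summed), Fxr1 stood at 55.8 and 33.9 over all kept cells of the libraries labelled siCont and at 104 and 71.8 in the libraries labelled siFXR1-LNA. In neutrophils the values were 63.9 and 28.0 against 86.4 and 64.7 CPM. Every direction below is therefore that of the libraries as labelled.

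The libraries held 78179267 to 113606837 UMIs over 17309 to 54665 barcodes, and the median neutrophil had 1488.5 to 2228 UMIs. Neutrophils were 0.666% and 2.56% of kept cells in the libraries labelled siCont (mean 1.61% ± 1.34, SD, n = 2) and 5.89% and 20.9% in those labelled siFXR1-LNA (13.4% ± 10.6, n = 2). The groups did not overlap, but the two-sided exact permutation test over libraries gave p = 0.333, the smallest value that 2 libraries against 2 allow. Among barcodes with under 30% hemoglobin UMIs the shares were 1.66% and 7.80% against 6.5998% and 25.9%, and siCont replicate 2 then lay above siFXR1-LNA replicate 1 (p = 0.667 in the same exact permutation test). At a limit of 5% the shares of all kept cells were 0.204% and 1.12% against 0.970% and 5.64%, which overlapped. The neutrophil label was set against 6 markers that were not used to choose the cells (Csf3r, Cxcr2, Ly6g, Mmp9, Il1r2, Cd177). Of the cells chosen, 97.9%, 89.9%, 92.2% and 96.7% had a UMI of one of them, in the order siCont replicates 1 and 2 and siFXR1-LNA replicates 1 and 2. Of the other kept cells, 5.26% to 37.8% had one. Single markers were found less often and differed between the groups. Csf3r had a UMI in 62.0% and 79.4% of neutrophils labelled siCont against 42.4% and 53.3%. Cxcr2 was found in 52.9% and 73.8% against 23.6% and 31.9%, and Ly6g in 12.8% and 15.4% against 3.15% and 5.34%. Il1r2 went the other way, with 62.4% and 70.6% against 75.5% and 86.1%. Csf3r stood at 571 and 1154 CPM in the libraries labelled siCont against 292 and 382, and Cxcr2 at 425 and 819 against 146 and 203. Ly6g stood at 132 and 232 against 20.6 and 30.5 CPM. Mmp9 and Cd177 were also lower without overlap in the libraries labelled siFXR1-LNA, while Il1r2 overlapped (919 and 1262 against 1223 and 1938 CPM). Transcripts of other cells were also present. Hemoglobin genes made up 15.9% and 14.6% of neutrophil UMIs in the libraries labelled siCont against 6.32% and 2.81%, and 87.6%, 55.6%, 37.7% and 48.4% of neutrophils carried 2 or more markers of another cell class. No doublet caller was run, and results that change without those cells are given with both values. Pairs of libraries shared 575 to 2846 barcode sequences among kept cells and 0 to 11 among neutrophils.

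Granulopoiesis fills granules by timing of synthesis. Promyelocytes make the azurophil proteins, among them the serine proteases neutrophil elastase (Elane), proteinase 3 (Prtn3) and cathepsin G (Ctsg) and the peroxidase Mpo. Myelocytes and metamyelocytes then switch to the specific granule proteins lactoferrin (Ltf), cathelicidin (Camp) and neutrophilic granule protein (Ngp), and band and segmented cells lose these transcripts while S100a8 and S100a9 persist. Factors of the ETS family such as PU.1 (Spi1) act on azurophil genes, and C/EBPε (Cebpe) is required for the specific granules.

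Several of the genes are neighbours in the mouse genome (build GRCm38, mm10). Prtn3 (chr10:79879667-79883174, plus strand) lies 3137 bases upstream of Elane (chr10:79886312-79888216, plus strand) with 0 genes between them in RefSeq. The specific granule genes are all on chromosome 9, with Camp at chr9:109847377-109849456 on the minus strand, Ngp at chr9:110419808-110423012 and Ltf at chr9:111019292-111042766, both on the plus strand. Camp and Ltf are 1169835 bases apart with 29 protein-coding genes between them, so this is a loose neighbourhood and not a cluster. S100a8 (chr3:90669071-90670034, plus strand) and S100a9 (chr3:90692630-90695721, minus strand) are 22595 bases apart. Mpo (chr11:87793784-87804412), Ctsg (chr14:56099885-56102574) and Retnlg (chr16:48872608-48874498) stand alone among the genes described here.

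The 250 bases before the annotated start are shown for the pair of azurophil neighbours and for the 3 specific granule genes. They are from RefSeq (GRCm38.p6), 5′ to 3′ on the strand of the gene, and the capitals mark the letters GGAAGT, which an ETS factor can bind, and TTNNGCAA, a form that C/EBP factors can bind, on either strand. The windows are chr10:79886062-79886311 for Elane, chr10:79879417-79879666 for Prtn3, chr9:109849457-109849706 for Camp, chr9:110419558-110419807 for Ngp and chr9:111019042-111019291 for Ltf.
Elane: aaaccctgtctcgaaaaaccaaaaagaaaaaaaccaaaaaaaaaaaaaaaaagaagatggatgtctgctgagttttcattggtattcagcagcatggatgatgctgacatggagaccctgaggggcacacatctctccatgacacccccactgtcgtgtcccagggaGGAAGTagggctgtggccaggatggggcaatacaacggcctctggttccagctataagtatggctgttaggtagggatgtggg
Prtn3: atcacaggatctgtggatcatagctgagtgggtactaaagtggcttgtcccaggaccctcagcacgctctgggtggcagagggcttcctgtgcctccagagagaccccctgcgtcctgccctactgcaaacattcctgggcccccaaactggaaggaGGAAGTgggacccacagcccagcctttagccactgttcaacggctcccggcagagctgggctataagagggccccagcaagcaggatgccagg
Camp: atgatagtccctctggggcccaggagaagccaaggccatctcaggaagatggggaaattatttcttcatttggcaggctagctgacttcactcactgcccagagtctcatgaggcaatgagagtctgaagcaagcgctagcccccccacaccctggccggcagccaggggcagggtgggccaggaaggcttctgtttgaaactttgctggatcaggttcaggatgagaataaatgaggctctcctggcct
Ngp: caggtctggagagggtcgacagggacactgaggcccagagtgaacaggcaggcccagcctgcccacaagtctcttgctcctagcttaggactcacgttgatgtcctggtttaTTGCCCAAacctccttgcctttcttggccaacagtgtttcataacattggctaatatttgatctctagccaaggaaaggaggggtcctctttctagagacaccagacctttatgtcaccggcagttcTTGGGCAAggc
Ltf: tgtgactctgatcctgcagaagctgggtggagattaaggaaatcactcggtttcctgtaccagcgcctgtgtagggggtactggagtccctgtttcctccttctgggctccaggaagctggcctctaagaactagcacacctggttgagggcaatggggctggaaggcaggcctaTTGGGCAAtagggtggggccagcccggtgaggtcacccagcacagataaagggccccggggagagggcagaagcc

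GGAAGT was present in the windows of 6 of the 10 genes, among them all 4 azurophil genes, and in 19.7% of 32851 promoter windows of the same length. In Elane and Prtn3 it lay 83 and 93 bases before the start. TTNNGCAA was present in 4 of the 10 windows (Ltf, Ngp, Retnlg, S100a9) and in 9.56% of all windows. The Ltf and Ngp windows held the same letters, ttgggcaa, at 75 and 11 bases before the start, and Ngp held ttgcccaa on the opposite strand at 138 bases. The other strings searched were GAGGAA (6 of the 10 windows, 23.3% of all windows, overlapping GGAAGT in part), TTNNGNAA (5 windows and 36.8%, which includes TTNNGCAA), TAACNG (Elane and Mpo, 19.8%) and TGTGGT (Ctsg and S100a9, 14.0%). The Camp window held none of the 6 strings.

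The azurophil transcripts were scarce in neutrophils, and a few barcodes held much of what there was. Elane stood at 2.00 and 189 CPM in the neutrophils of the libraries labelled siCont and at 2.85 and 14.97 CPM in the siFXR1-LNA libraries, from 1, 290, 21 and 144 UMIs. Mpo, the peroxidase that gives azurophil granules their name as peroxidase-positive, stood at 0 and 37.2 against 1.36 and 8.11 CPM. Ctsg was at 0 and 16.3 against 0.543 and 7.59 CPM. For Mpo and Ctsg in siCont replicate 1, 0 of 242 neutrophils had a UMI, which allows a share of up to 1.24%. In all 3 genes siCont replicate 2 was the highest library and siCont replicate 1 the lowest, so the groups overlapped.

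Barcodes with 5 or more UMIs of Elane, Mpo and Ctsg together numbered 0, 4, 5 and 5 among all kept cells of the 4 libraries in the order above. They held 77.5%, 34.5% and 69.8% of all Elane UMIs of kept cells in the 3 libraries that had any. A single neutrophil of siCont replicate 2 held 246 Elane, 47 Mpo, 315 Prtn3 and 22 Ctsg UMIs together with 415 Camp and 228 Ngp UMIs, so the azurophil and specific transcripts were in one barcode. It carried 84.8% of the Elane UMIs of that library's neutrophils. A barcode of siFXR1-LNA replicate 2 showed the azurophil set nearly without the specific one, with 327 Elane, 171 Mpo, 324 Prtn3 and 109 Ctsg UMIs against 2 Camp and 0 Ngp. It had 14 UMIs of Myb, a factor of early progenitors, among 16835 UMIs. It also carried 2 or more of Wt1, Krt19, Krt18, Krt8 and Msln, which placed it in a tumor or mesothelial gate. Its S100a8 plus S100a9 share was 0.202%, which placed it outside the neutrophils as chosen here. In siFXR1-LNA replicate 1, a barcode with 44 Elane, 80 Mpo, 133 Prtn3 and 53 Ctsg UMIs also fell outside the rule. Not every such barcode was a granulocyte precursor by its transcripts, since one in siFXR1-LNA replicate 1 had 11 Ctsg UMIs beside 110 of Prss34 and 35 of Mcpt8, proteases of basophils.

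Prtn3 was the azurophil transcript with the most UMIs, and most of them lay outside neutrophils. Its level in neutrophils was 65.9 and 342 CPM in the libraries labelled siCont and 28.5 and 41.7 CPM in the siFXR1-LNA libraries, and these groups did not overlap. Of all Prtn3 UMIs in kept cells, however, 0.551%, 11.1%, 5.15% and 7.20% were in neutrophils, against 97.8%, 97.6%, 82.3% and 88.1% of all Camp UMIs. The scarcer azurophil transcripts were also found largely outside neutrophils, with 12.5%, 77.7%, 12.1% and 23.6% of Elane UMIs, 0%, 28.2%, 4% and 17.0% of Mpo UMIs and 0%, 9.80%, 2.41% and 25.1% of Ctsg UMIs in them. A part of the Prtn3 UMIs, 17.8%, 34.7%, 37.0% and 36.7%, was in the cells that passed a macrophage gate (2 or more of Adgre1, C1qa, C1qb, Csf1r and Mrc1, and at most 1 marker of any other class), where Prtn3 stood at 200, 184, 110 and 128 CPM. After each cell was thinned to 1000 UMIs, 15.8%, 13.4%, 7.22% and 9.31% of the macrophage gate had a Prtn3 UMI, against 6.02%, 7.42%, 1.87% and 3.03% of neutrophils and 1.46%, 1.38%, 1.20% and 2.36% of a B cell gate defined likewise, a cell class that should lack the gene. Prtn3 was thus above the B cell gate in the macrophage gate of all 4 libraries.

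Within the macrophage gate, Prtn3 followed Alox15 and Prg4, genes known from resident peritoneal macrophages. Gated cells with a UMI of either gene carried Prtn3 in 30.9%, 31.1%, 30.8% and 31.9% at 1000 UMIs, and those with neither in 10.4%, 7.73%, 4.47% and 8.33%. The counting intervals of the 4 libraries overlapped among the cells with either gene, and the cells with neither had the lowest share in siFXR1-LNA replicate 1. Cells with Alox15 or Prg4 made up 19.8% and 20.9% of the gate in the libraries labelled siCont against 9.34% and 8.90%. Unthinned, 74.1%, 72.3%, 60.9% and 71.2% of the cells with Alox15 or Prg4 had a Prtn3 UMI. The split on these 2 genes was chosen after the data were seen. The plot of both genes by cell group also shows Ngp, which has the opposite distribution.

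**Figure D1:**
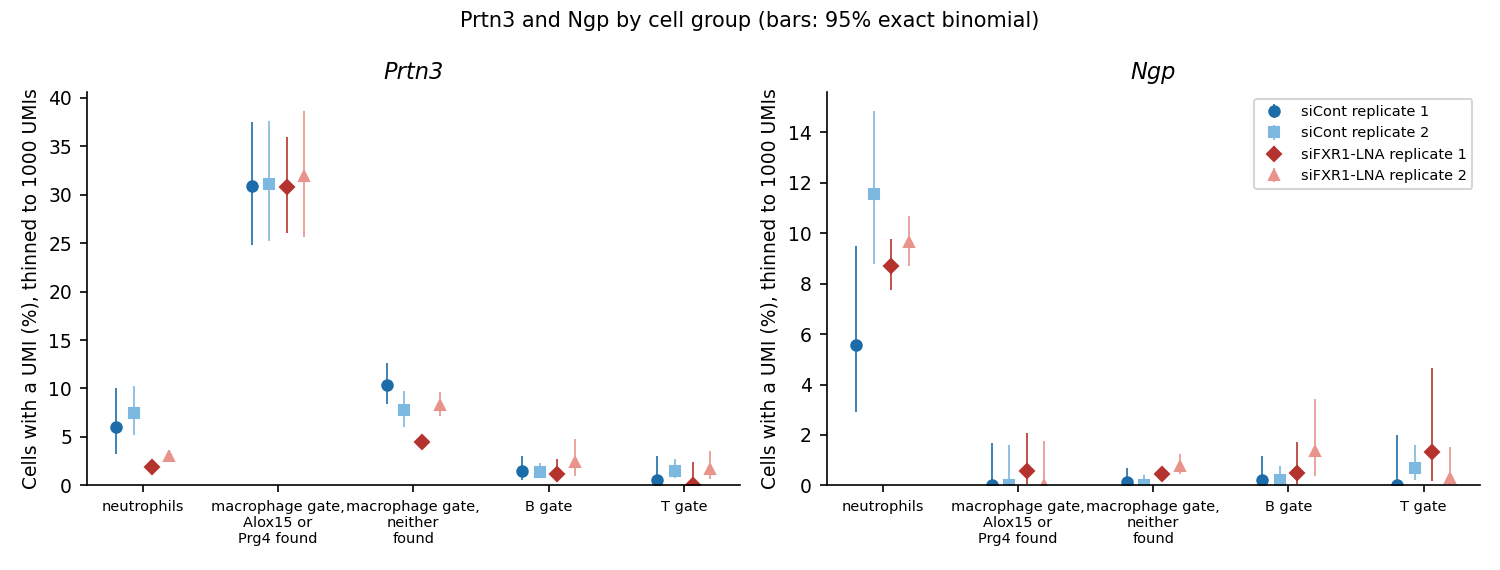
Share of cells in percent with a UMI of Prtn3 (left) and Ngp (right) at 1000 UMIs per cell, with 1 point per library and bars of the 95% exact binomial interval, in neutrophils, in the macrophage gate with and without Alox15 or Prg4, and in B and T cell gates. Prtn3 reaches 30.8% to 31.9% in the macrophage gate with Alox15 or Prg4, above neutrophils in all 4 libraries, and Ngp is more frequent in neutrophils than in any of the gates.

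Camp, Ltf and Ngp fell in the neutrophils of the libraries labelled siFXR1-LNA, while 0 of 10 further specific granule genes passed in that direction. Camp, the precursor of the mouse cathelicidin peptide, stood at 2558 and 2144 CPM in the libraries labelled siCont and at 156 and 114 CPM in the siFXR1-LNA libraries. Ltf, the iron-binding lactoferrin, stood at 881 and 874 CPM against 67.6 and 96.5 CPM. Ngp, a cystatin-like protein of the specific granules, stood at 2688 and 3524 CPM against 580 and 826 CPM. For each of these genes both libraries labelled siCont lay above both labelled siFXR1-LNA.

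**Figure D2:**
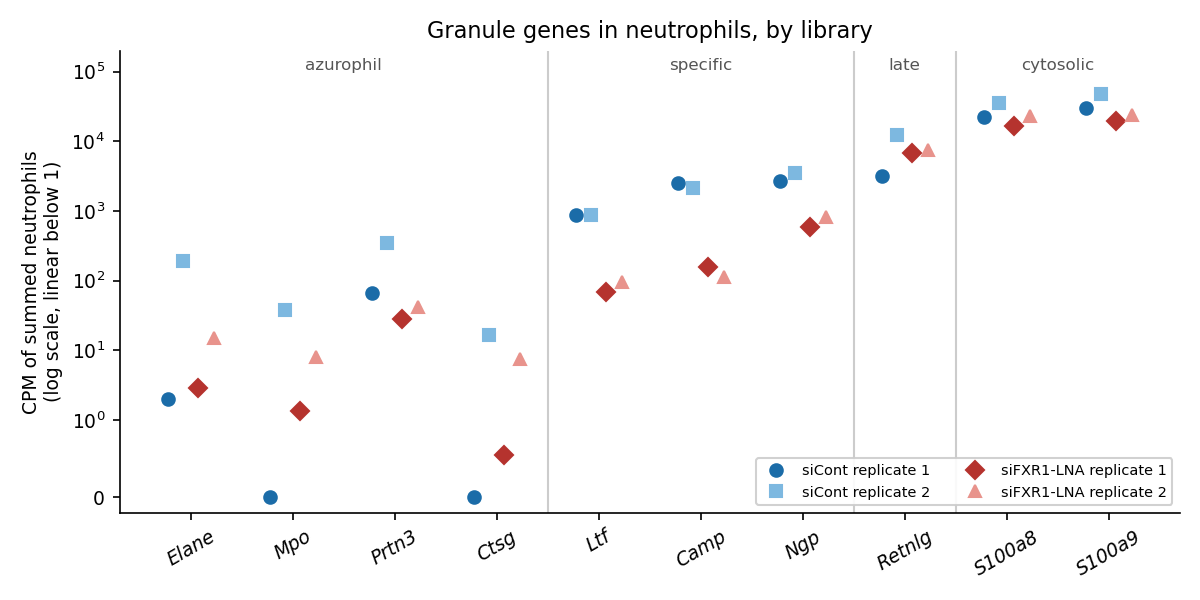
Level of each of the 10 genes in summed neutrophils, in CPM on an axis that is logarithmic above 1 and linear below it, with 1 point per library, siCont in blue and siFXR1-LNA in red. Ltf, Camp and Ngp of the 2 libraries labelled siFXR1-LNA lie below both libraries labelled siCont, while the groups overlap for Retnlg and S100a8.

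edgeR's quasi-likelihood test on the summed UMI counts was fitted over 11754 genes, of which 3.06% were called at a Benjamini-Hochberg adjusted p under 0.05 (2.05% lower and 1.01% higher in the libraries labelled siFXR1-LNA). S100a8 and S100a9 were among the genes fitted, but they chose the cells, so their test results are not used. Of the other 8 granule genes, 3 were called, all lower. Camp fell by 4.17 on the log2 scale (SE 0.37, edgeR adjusted p = 0.00259), Ltf by 3.48 (SE 0.37, edgeR adjusted p = 0.00570) and Ngp by 2.22 (SE 0.38, edgeR adjusted p = 0.0224). The call for Ngp rested on siCont replicate 2, since without that library its log2 fold change was -1.82 with an edgeR adjusted p of 0.144. It was also lost when the S100a8 plus S100a9 limit was raised to 10% (log2 fold change -1.12, edgeR adjusted p = 0.144). Camp and Ltf were called in 17 of 17 alternatives, including 1 in which siCont replicate 1 held 0 Camp UMIs.

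The remaining 5 genes did not pass. Prtn3 had a log2 fold change of -2.70 (SE 0.68, edgeR adjusted p = 0.0748), and without the barcodes rich in Elane, Mpo and Ctsg it was -1.24 (adjusted p = 0.110). Elane had -3.66 (SE 1.17, edgeR adjusted p = 0.135), Mpo -2.35 (adjusted p = 0.258) and Ctsg -1.44 (adjusted p = 0.544), values that rested on siCont replicate 2. Without that library all 3 turned to positive (2.28, 7.82 and 7.61), from 0 or 1 UMI in the siCont library left, so they depend on the prior count. Retnlg had -0.23 (SE 0.59, edgeR adjusted p = 0.879). The median over the 8 genes was -2.53 against 0.03 over all genes tested. Groups did not overlap in 4 of the 8, all lower (Prtn3, Ltf, Camp, Ngp), against 21.1% of all genes lower and 29.2% higher without overlap. Leaving out neutrophils with 2 or more markers of another class gave 5 calls of 8, with Elane and Prtn3 added, but that fit leaned on siCont replicate 2 as described for Camp below.

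**Figure D3:**
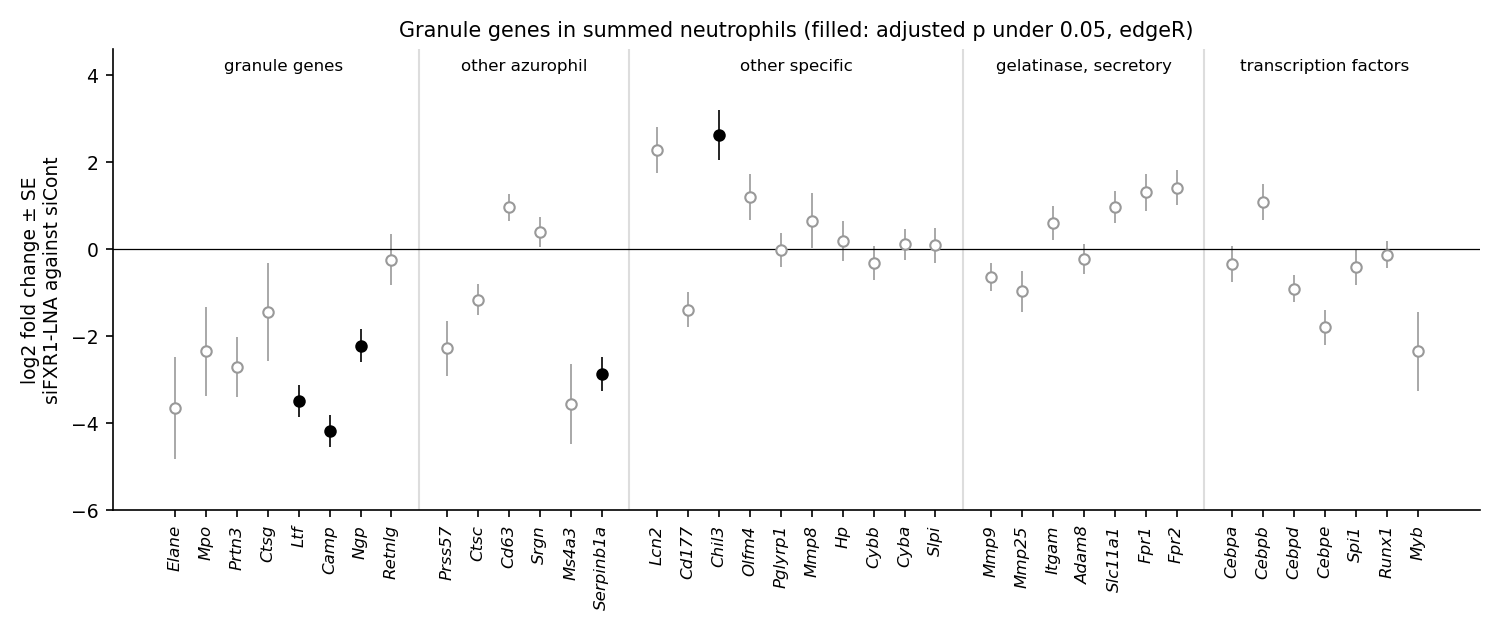
Log2 fold change of the libraries labelled siFXR1-LNA against siCont in summed neutrophils for the 8 tested granule genes and the genes of 4 lists, with bars of 1 SE and filled points where the edgeR adjusted p is under 0.05. The filled points are Camp, Ltf, Ngp and Serpinb1a below 0 and Chil3 above it, with Retnlg near 0.

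Other granule genes did not move as one with Ltf, Camp and Ngp. Over all genes tested, 2183 of 11754 had an unadjusted p under 0.05. Of 10 further specific granule genes, 1 rose, 0 fell, 4 had an unadjusted p under 0.05 and the median log2 fold change was 0.16. Chil3, a chitinase-like protein, rose from 220 and 648 CPM to 2337 and 3526 CPM (log2 fold change 2.63, edgeR adjusted p = 0.0451), a call that held in 11 of 17 alternatives and was lost without either siCont replicate 1 (adjusted p = 0.0771) or 2 (adjusted p = 0.0507). Lcn2, the siderophore-binding lipocalin, stood at 1172 and 2958 against 8462 and 13230 CPM and missed the threshold (log2 fold change 2.28, edgeR adjusted p = 0.0590). The specific granule genes thus lay on both sides of 0, with Ltf and Camp lower and Chil3 higher in the same summed neutrophils. The Chil3 difference shrank and was not called as the S100a8 plus S100a9 limit rose. It was 1.48 at 5% (edgeR adjusted p = 0.0806) and 0.87 at 10% (edgeR adjusted p = 0.238). Of 7 further genes grouped with the azurophil proteins, which include an inhibitor of their proteases, 6 were tested. Of these, 5 had an unadjusted p under 0.05, the median was -1.72 and only the inhibitor passed, as lower. That gene was Serpinb1a, an inhibitor of neutrophil serine proteases, at 116 and 172 against 17.2 and 25.2 CPM (log2 fold change -2.86, edgeR adjusted p = 0.00955), a call that was lost without siCont replicate 2 (edgeR adjusted p = 0.0507). Of 7 genes of gelatinase granules and secretory vesicles, among them Mmp9 and Itgam, 0 passed in either direction (3 at an unadjusted p under 0.05, median 0.62). Of 8 transcription factors of granulopoiesis 7 were tested and 0 passed (4 at an unadjusted p under 0.05, median -0.41), with Cebpe at -1.79 (edgeR adjusted p = 0.0519).

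Retnlg was abundant in the neutrophils of every library, and its spread within a group exceeded the difference between groups. It stood at 3169 and 12155 CPM in the libraries labelled siCont and 6766 and 7467 CPM in the siFXR1-LNA libraries, so the 2 siCont libraries were the extremes. At 1000 UMIs, 40.3% of neutrophils in siCont replicate 1 had a Retnlg UMI, against 72.7%, 74.0% and 70.4% in the other 3 libraries.

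S100a8 and S100a9 are given as a description, since they chose the cells. S100a8 stood at 22237 and 35354 CPM against 16490 and 22911, and S100a9 at 30381 and 47530 against 19329 and 23880. For every 100 UMIs of S100a8, neutrophils had 137, 134, 117 and 104 of S100a9, whereas the macrophage gate had 64.5, 89.0, 66.7 and 43.9. Cells just inside the limit (1% to 2%) numbered 86, 193, 1327 and 1057, and cells just outside it (0.5% to 1%) numbered 72, 322, 1122 and 809. Retnlg was at 563, 1367, 2820 and 2353 CPM just inside and at 189, 805, 1461 and 1295 CPM just outside. Ngp was at 10.2, 30.1, 18.3 and 30.7 CPM inside against 0, 6.5, 12.3 and 17.3 CPM outside.

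Most Camp UMIs of the neutrophils lay in few cells with many transcripts. Neutrophils with 10 or more Camp UMIs numbered 9 and 22 in the libraries labelled siCont and 16 and 13 in those labelled siFXR1-LNA. They held 99.4%, 98.8%, 91.2% and 89.7% of all Camp UMIs of the neutrophils. The groups overlapped in the count of such cells, while they did not in the number of neutrophils. As a share of neutrophils they were 3.72% and 3.43% against 0.4997% and 0.369%, without overlap (exact permutation p = 0.333, the smallest possible). As a share of all kept cells they were 0.0248% and 0.0876% (mean 0.0562% ± 0.0444, SD, n = 2) against 0.0294% and 0.0770% (0.0532% ± 0.0337, n = 2), with overlap (exact permutation p = 1.00).

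Markers of other cells were common in those cells. All 9 Camp-rich cells of siCont replicate 1 carried 2 or more markers of another class, against 9 of 22, 5 of 16 and 5 of 13 in the other libraries. Over all neutrophils that share was 87.6%, 55.6%, 37.7% and 48.4%. The markers were those of mast cells in 8 of the 9 and in 7, 1 and 1 cells of the others. Such markers were spread over the libraries labelled siCont. The summed mast cell list stood at 1875 and 1062 CPM over all their neutrophils against 96.3 and 129. In the other kept cells it stood at 1475 and 630 against 124 and 96.3 CPM. Cma1 of that list had a UMI in 80.2% and 61.1% of neutrophils labelled siCont, and in 76.9% and 58.0% of the other kept cells. Each of the Camp-rich cells in the 4 libraries also had a UMI of a neutrophil marker, and their median S100a8 plus S100a9 share was 22.7%, 22.5%, 13.1% and 24.9%. With the cells that carry other markers left out, siCont replicate 1 kept 30 neutrophils and 0 Camp UMIs, which allows up to 64.9 CPM, against 3224, 215 and 207 CPM in siCont replicate 2 and the libraries labelled siFXR1-LNA. The groups then overlapped, and the call for Camp (log2 fold change -3.27, edgeR adjusted p = 1.80e-06) and for Ltf (-2.59, adjusted p = 7.67e-05) rested on siCont replicate 2. The part of these other transcripts in the Camp values was not tested.

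The Camp level within the Camp-rich cells is given as a description, since Camp UMIs chose them. It was 35362 and 20144 CPM in the libraries labelled siCont and 10832 and 9033 CPM in the others. A fixed limit of 10 UMIs admits a lower CPM in a deeper cell. The median depth of the Camp-rich cells was 3615 and 5473 against 5558 and 9591 UMIs, above that of other neutrophils in each library. The corresponding Ltf-rich cells numbered 9, 21, 12 and 14. Ngp-rich cells numbered 11 and 30 against 68 and 119, which as a share of neutrophils was 4.55% and 4.67% against 2.12% and 3.38%, lower without overlap in the libraries labelled siFXR1-LNA (exact permutation p = 0.333). Camp was also present in 9 of 11 and 21 of 30 Ngp-rich cells of the libraries labelled siCont at 10 or more UMIs, but in 15 of 68 and 13 of 119 of those labelled siFXR1-LNA. Retnlg at 10 or more UMIs was present in 5 of 11, 26 of 30, 64 of 68 and 114 of 119.

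Co-detection at a fixed depth showed which of the specific granule transcripts travel together. Thinning to 1000 UMIs kept 216, 458, 3154 and 3467 neutrophils and left out 26, 184, 48 and 55 shallower ones. A UMI of Ltf, Camp or Ngp was found in 6.48% and 11.8% of the neutrophils labelled siCont and in 10.6% and 12.6% of those labelled siFXR1-LNA, a difference of 2.45 percentage points with overlap (two-sided exact permutation p = 0.667). All 3 in the same cell were found in 4.17% and 4.59% against 0.602% and 0.404%, without overlap (exact permutation p = 0.333). The exact 95% binomial intervals of these shares, which cover counting error only, were 1.92% to 7.76%, 2.86% to 6.92%, 0.363% to 0.939% and 0.221% to 0.677%. The union difference turned to -0.21 percentage points without siCont replicate 1. It also depended on how neutrophils were chosen. At an S100a8 plus S100a9 limit of 5% the union was 19.1% and 22.5% against 38.6% and 27.5%, and at 10% it was 42.9% and 30.1% against 69.4% and 62.8%, without overlap in either case.

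Cells with Ngp and neither of the other transcripts were the most frequent kind in both libraries labelled siFXR1-LNA. Neutrophils with Ngp but neither Ltf nor Camp were 0.463% and 5.68% in the libraries labelled siCont and 7.61% and 8.68% in those labelled siFXR1-LNA. Neutrophils with Ngp beside Ltf or Camp were 5.09% and 5.90% against 1.11% and 0.981%. Of the cells with a Camp UMI, 100%, 96.0%, 65.2% and 58.5% also had Ngp, and 90%, 88.0%, 41.3% and 34.1% had Ltf. Of the cells with an Ngp UMI, 83.3%, 92.5%, 96.0% and 93.4% had Retnlg, against 40.3%, 72.7%, 74.0% and 70.4% of all thinned neutrophils. In the B cell gate, at median depths of 2026 to 2176 UMIs, 0.21%, 0.21%, 0.48% and 1.35% had an Ngp UMI at 1000 UMIs, against 5.56%, 11.6%, 8.72% and 9.66% of neutrophils.

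**Figure D4:**
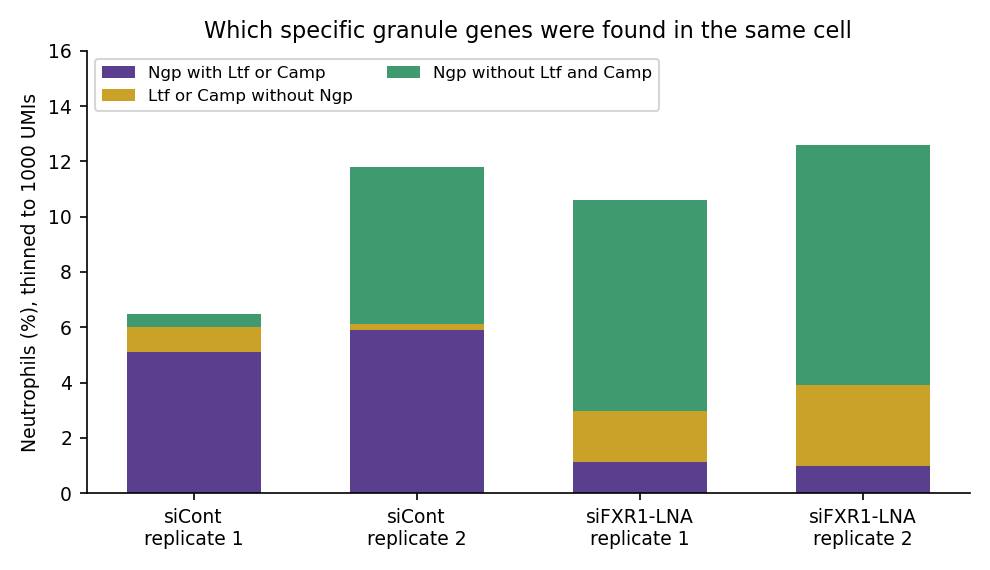
Share of neutrophils in percent, at 1000 UMIs per cell and 1 stacked bar per library, with Ngp beside Ltf or Camp (purple), Ltf or Camp without Ngp (yellow) and Ngp without both (green). The purple part is 5.09% and 5.90% in the libraries labelled siCont and 1.11% and 0.981% in the others, and the green part is the largest in both libraries labelled siFXR1-LNA.

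Azurophil transcripts of any kind (Elane, Mpo, Prtn3 or Ctsg) were found in 6.02% and 8.73% of thinned neutrophils labelled siCont and in 2.06% and 4.67% of those labelled siFXR1-LNA. The difference was -4.01 percentage points without overlap (two-sided exact permutation p = 0.333, the smallest possible). It rested on Prtn3. The summed macrophage list (Adgre1, C1qa, C1qb, Csf1r, Mrc1) stood at 1210 and 924 CPM in the same neutrophils against 373 and 716, also without overlap. Its members did not move as one. C1qa, C1qb and Mrc1 were lower without overlap in the libraries labelled siFXR1-LNA, and Adgre1 overlapped. Csf1r was higher there without overlap (87.9 and 95.9 against 99.3 and 153 CPM). In neutrophils without 2 or more markers of another class, Prtn3 stood at 130 and 281 against 32.2 and 29.6 CPM, from 6, 159, 135 and 125 UMIs. With Elane, Mpo and Ctsg alone the shares were 0% and 1.75% against 0.222% and 1.70%, a difference of 0.09 percentage points (p = 1.00 in the same exact permutation test). The 0% is 0 of 216 cells, which allows a share of up to 1.39%.

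The order of the genes along maturation was read from other genes. Each thinned neutrophil was placed by the number of 8 mature genes detected (such as Cxcr2, Csf3r and Il1r2) minus the number of 10 immature genes detected (such as Cebpe, Fcnb and Mki67), none of them among the 10 genes followed. The 5 bins from -2 or less to 5 or more held 8, 50, 95, 52 and 11 cells in siCont replicate 1, 7, 44, 153, 187 and 67 in siCont replicate 2, 299, 1276, 1231, 305 and 43 in siFXR1-LNA replicate 1, and 144, 1061, 1529, 629 and 104 in siFXR1-LNA replicate 2. The end bins of the libraries labelled siCont are thin. Chil3 and Cd63 are among the immature genes, and Chil3 itself rose between the groups, so positions are compared within a library. Of the neutrophils, 87.6%, 55.6%, 37.7% and 48.4% carried 2 or more markers of another class, in the same order. The part of such transcripts in the positions was not tested. In the first bin of siFXR1-LNA replicates 1 and 2, 2.68% and 4.17% of cells had a Camp UMI and 59.5% and 59.7% a Retnlg UMI. A low position there is read as a rank on this axis and not as a stage.

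Camp was found toward the immature end in each library. From the first to the last bin, the share of cells with a Camp UMI went from 50.0% to 0% in siCont replicate 1, from 85.7% to 0% in siCont replicate 2, from 2.68% to 0% in siFXR1-LNA replicate 1 and from 4.17% to 0.96% in siFXR1-LNA replicate 2. Cells with Camp had a mean position of -1.20, -0.32, -0.33 and 0.34, against 1.59, 2.60, 0.55 and 1.22 for all neutrophils of the same libraries. Ltf had -0.25, 0.12, -0.13 and 0.83, and Prtn3 1.54, 1.97, 0.34 and 1.00. Camp and Ltf thus lay below the mean of all neutrophils in 4 of 4 libraries, Camp further than Ltf.

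Retnlg was detected more often toward the mature end. Its share went from 37.5% to 72.7% in siCont replicate 1, from 42.9% to 82.1% in siCont replicate 2, from 59.5% to 93.0% in siFXR1-LNA replicate 1 and from 59.7% to 88.5% in siFXR1-LNA replicate 2. Cells with Retnlg had mean positions of 1.80, 2.71, 0.72 and 1.38, each above the mean of all neutrophils. The mean Retnlg level followed the share in 3 libraries and not in siCont replicate 1. From the first to the last bin it went from 6.38 to 2.27 UMIs per 1000 in siCont replicate 1, from 5.86 to 14.1 in siCont replicate 2, from 3.595 to 11.9 in siFXR1-LNA replicate 1 and from 3.59 to 10.6 in siFXR1-LNA replicate 2. Per 100 UMIs of S100a8 it went from 11.9 to 8.20 in siCont replicate 1 and increased in the other 3 libraries.

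Ngp differed between the libraries. Along the axis its share declined from 62.5% to 0% in siCont replicate 1 and from 85.7% to 2.99% in siCont replicate 2, but increased from 5.69% to 20.9% in siFXR1-LNA replicate 1 and from 6.94% to 18.3% in siFXR1-LNA replicate 2. Its mean level did not rise with the share, at 0.56, 0.25, 0.31, 0.29 and 0.37 Ngp UMIs per 1000 over the bins of siFXR1-LNA replicate 1 and 0.88, 0.47, 0.28, 0.39 and 0.39 in replicate 2. Relative to S100a8, Ngp fell along the axis in all 4 libraries, from 39.1 to 0, from 30.6 to 0.0835, from 4.73 to 1.52 and from 5.13 to 1.36 Ngp UMIs per 100 of S100a8. Mean S100a8 itself moved in different directions, from 53.8 to 27.7 and from 86.0 to 35.7 UMIs per 1000 in the libraries labelled siCont and from 11.7 to 24.5 and from 17.2 to 28.9 in the others.

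**Figure D5:**
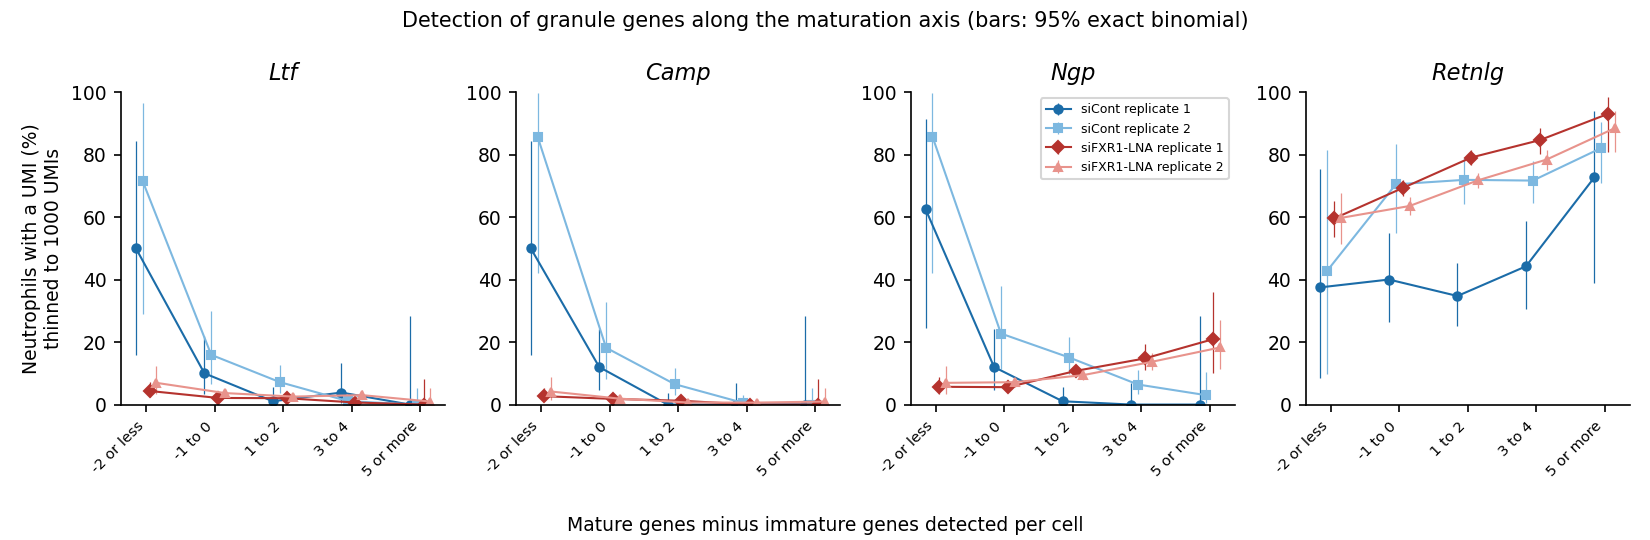
Share of neutrophils in percent with a UMI of Ltf, Camp, Ngp and Retnlg in 5 bins of the maturation axis (number of mature minus number of immature genes detected, at 1000 UMIs per cell), with 1 line per library and bars of the 95% exact binomial interval. Camp declines from the first to the last bin in all 4 libraries, while Ngp declines in the 2 libraries labelled siCont and rises in the 2 labelled siFXR1-LNA.

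The cells with Ngp were split into 2 kinds by whether a UMI of Ltf or Camp was found beside it. Those that also had Ltf or Camp had mean positions of -1, -0.11, -0.34 and 0.06. Those with neither had 2.35, 1.37 and 1.89 in siCont replicate 2 and siFXR1-LNA replicates 1 and 2, and the 1 such cell of siCont replicate 1 stood at -2. In the 3 libraries with more than 1 cell of the second kind, it therefore sat more than 1 gene further toward the mature end. The direction for Ngp did not hinge on Chil3 and Cd63. With these 2 genes left out, cells with Ngp stood -2.24, -1.51, 0.46 and 0.41 from cells without it, and with mature genes only the values were -1.51, -1.23, 0.47 and 0.34.

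Across single neutrophils, 1741 genes detected in at least 5% of the neutrophils of every library were compared with the sum of Ltf, Camp and Ngp and with Retnlg by Pearson's r on log values at 1000 UMIs. The 5 most like the specific granule sum, by the median r of the 4 libraries, were Ifitm6 (0.51, range 0.49 to 0.59), Anxa1 (0.36), Lcn2 (0.32, range 0.08 to 0.77), Cybb (0.28) and Pglyrp1 (0.26). Lcn2 was also among the 5 most like Retnlg (0.29), with S100a11 (0.37), Alox5ap (0.33), Wfdc17 (0.31) and S100a6 (0.27). The cells of a library share its depth and its free RNA, and most of these values are weak.

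Outside neutrophils, the late and cytosolic transcripts were found at low levels that were lowest in the library with the fewest neutrophils. In the B cell gate S100a8 was at 15.2, 114, 249 and 249 CPM and Retnlg at 1.6, 31.0, 95.8 and 66.2 CPM, in libraries with 0.666%, 2.56%, 5.89% and 20.9% neutrophils. For every 100 UMIs of S100a8 the B cell gate held 10.5, 27.1, 38.5 and 26.6 of Retnlg, against 14.3, 34.4, 41.0 and 32.6 in the neutrophils of the same library. In the macrophage gate Camp had 3, 1, 33 and 28 UMIs, or 0.6, 0.1, 2.4 and 1.8 CPM. The part of free RNA in these values was not tested.

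The contrast between the groups in summed neutrophils was set against that in the macrophage gate in one fit over both, in which 3.25% of 13829 genes and 7 of the 8 granule genes, all but Ctsg, were called. Camp differed between the 2 kinds of cells by 7.13 on the log2 scale (edgeR adjusted p = 1.62e-08), Ngp by 5.50 (edgeR adjusted p = 1.35e-07), Ltf by 5.05 (edgeR adjusted p = 1.06e-05) and Retnlg by 3.37 (edgeR adjusted p = 9.20e-06), each with the higher contrast in the macrophage gate. Against the B cell gate, 2.32% of all genes and 6 of the 8 granule genes differed, all but Ctsg and Ltf. The first 4 were also called against the macrophage gate without the barcodes rich in Elane, Mpo and Ctsg. Prtn3 differed by 1.95 (edgeR adjusted p = 0.0323) and by 0.76 without those barcodes (adjusted p = 0.228). In the macrophage gate Camp, Ngp, Ltf and Retnlg stood higher in the siFXR1-LNA libraries, which held more neutrophils, and the neutrophil share's part in these differences was not tested.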

How the data were processed

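The values analysed are UMI counts per gene and cell barcode, deposited by the authors as 1 matrix per library with no normalization. Per the file headers, reads were counted with Cell Ranger 7.0.0 (mm10). The labels and the study's methods differ in the version of the 3′ kit, and the methods name another Cell Ranger version. Total counts per library set the precision of each share, which is given with its cells.

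Following the study's methods, barcodes with under 100 or over 4800 detected genes, or with over 15% of UMIs from mitochondrial transcripts, were removed. Neutrophils were cells with S100a8 plus S100a9 at 1% of UMIs or more. No doublet caller was run. Other classes were gates of at least 2 markers of the class and at most 1 of any other, and barcodes with hemoglobin at 30% of UMIs or more were set apart. UMI counts were summed over neutrophils per library and tested with edgeR 4.0.16 (R 4.3.3, TMM, filterByExpr, quasi-likelihood) with Benjamini-Hochberg adjustment over all genes, without a replicate term. DESeq2 1.42.0 was an alternative. Shares were compared over libraries by two-sided exact permutation after cells were thinned to 1000 UMIs at random. CPM values are scaled to the UMI total of the summed cells. Tested on simulated counts for 11498 genes in this comparison, the edgeR fit recovered 1.02% of genes changed 2-fold, 43.2% of those changed 4-fold, and called 0 of 11305 unchanged genes.

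The genes named were the 10 granule genes, the genes with the largest mean CPM of each of 4 lists together with those that passed or came nearest to the threshold, and the 5 genes most like each of 2 patterns. Genes and lists were chosen with earlier results of these data known. The comparison with other gates, the split on Alox15 and Prg4, the limit of 10 Camp UMIs, the axis without Chil3 and Cd63, the motif strings and the counts without azurophil-rich barcodes, without Ngp or without Prtn3 were chosen after seeing the data. Promoter sequences matched by symbol for all 10 genes.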

Additional observations from a re-analysis of the deposited data

Results flagged for a closer look

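The contrast between libraries labelled siFXR1-LNA and siCont differed between neutrophils and another gate for several genes, by the interaction term of an edgeR fit over both kinds of cells (adjusted p under 0.05). All values are log2 differences, the contrast in the other gate minus that in neutrophils, and all were positive. For the macrophage gate they were 6.40 for Elane, 3.75 for Mpo, 1.95 for Prtn3, 5.05 for Ltf, 7.13 for Camp, 5.50 for Ngp and 3.37 for Retnlg. For the B cell gate they were 5.96 for Elane, 5.94 for Mpo, 3.85 for Prtn3, 5.44 for Camp, 4.08 for Ngp and 2.61 for Retnlg. Background shares of genes called were 3.25% and 2.32%. Without the barcodes that held 5 or more UMIs of Elane, Mpo and Ctsg, the macrophage gate values of Elane and Mpo were 1.54 and 1.46 (edgeR adjusted p = 0.655 and 0.581), and Elane and Mpo could not be tested against the B cell gate. In the B cell gate Camp rests on 0, 5, 2 and 3 UMIs and Ngp on 1, 7, 3 and 8.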

How the results depend on the processing

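Of the 8 granule genes tested, 3 were called by the fit reported, 5 without cells with 2 markers of another class, 6 with any gene that had a UMI and 6 with a replicate block, against 2 (without siCont replicate 2) to 7 (without siFXR1-LNA replicate 2) when 1 library was left out. Calls over all genes were 360, against 143 at an S100a8 plus S100a9 limit of 10%, 231 with at least 500 genes per cell, 653 without cells with 2 markers of another class, 533 with DESeq2, 1306 with any gene that had a UMI and 1820 with the replicate block, and 72 (without siCont replicate 2) to 618 (without siCont replicate 1) when 1 library was left out. The lower share of calls was 66.9%, 57.6% with DESeq2 and 60.3% without TMM, and the median of all genes was 0.03, -0.19 and 0.11.

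The block added Elane, Mpo, Prtn3, Lcn2 and Cebpe, changed no other call among the genes named with a fold change, and turned Retnlg to 0.13. Same-numbered libraries correlated at 0.383 in their deviations from the group means, but with 2 pairs the numbers are not shown to pair the samples. Retnlg was 0.086 at the 10% limit and 1.28 without siCont replicate 2, where Elane, Mpo and Ctsg were 2.28, 7.82 and 7.61. Leaving out 1 library moved them from -5.30 to 2.28, -4.13 to 7.82 and -4.25 to 7.61, and Retnlg from -0.95 to 1.28.

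The neutrophil share differed by 4.28 (without siFXR1-LNA replicate 2) to 19.3 percentage points (without siFXR1-LNA replicate 1) with 1 library left out. The share with Ltf, Camp or Ngp differed by -0.21 (without siCont replicate 1) to 5.10 (without siCont replicate 2) with 1 library left out, by -2.63 with Ngp left out and by -3.87 for all of them in one cell. The share with an azurophil transcript differed by -5.37 to -2.65 with 1 library left out and by 0.088 without Prtn3. Mpo and Ctsg could not be fitted at the 10% limit. The cause of these changes was not tested. Elane, Mpo and Ctsg had 0 to 290 UMIs in a library's neutrophils, which limits their precision.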
